A study of Mus musculus with 11 samples.

Results

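Glutathione transferases and antioxidant enzymes were examined in the mouse mammary gland as a module of 44 genes out of 22196 genes in the transcript tables. Members were taken by symbol: the cytosolic and mitochondrial glutathione transferase classes, the microsomal transferases, the peroxiredoxins, the thioredoxins and thioredoxin reductases, the superoxide dismutases, and Gclc, Gclm, Gss, Gsr, Cat, Nqo1, Hmox1, Srxn1, Nfe2l2 and Keap1. These symbols matched 50 genes, and the 44 with at least 10 estimated reads in at least 5 of the 11 libraries were kept. All 44 were among the 12716 genes tested. The members nearest the read limit were Gsta2 and Mgst2, kept with 10 reads in 8 libraries, and Gsto2 and Gstp3, left out with 10 reads in 4. Gsto2 held 105 reads over all libraries together and Gstp3 held 92. Gstt4 had 10 reads, Gsta1 had 2 and Gstm3 had 1 in total, and Prdx6b had 0 reads in every library, where 3 reads, the most that a count of 0 allows, would equal 0.0792 to 0.116 CPM, a gene's reads relative to the size of its library.

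The libraries came from whole inguinal mammary glands taken at PND16.5, 16 days after delivery per the treatment label, from animals given milk and normal chow. The labels do not say whether these animals were the mothers or their young. There were 6 libraries labelled Knockout (Tsc1-fl/fl; Adipoq-Cre-Tg/+) and 5 Wild-Type (Tsc1-fl/fl; Adipoq-Cre-+/+), so both genotypes carried the floxed Tsc1 allele and differed in the Adipoq-Cre transgene. The Adipoq promoter drives Cre in adipocytes, so other gland cells keep an intact Tsc1 gene and contribute to the same RNA. The comparison asks how the loss of adipocyte TSC1, an inhibitor of the mTORC1 growth pathway, changed RNA in the whole gland. In such bulk RNA, fewer cells of a type and less RNA per cell cannot be told apart. The labels do not say that each library came from a separate animal, so p-values measure the spread between these libraries.

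Glutathione is a small thiol that donates electrons to peroxides and, through the glutathione transferases, is joined to reactive lipids and foreign compounds. The thioredoxin system carries electrons from NADPH to peroxiredoxins, which reduce hydrogen peroxide, while superoxide dismutases and catalase act on superoxide and hydrogen peroxide directly. Many of these genes are induced by NRF2, the product of Nfe2l2, which KEAP1 holds down until its cysteines are modified. In the mammary gland these enzymes are made by epithelium and by adipocytes.

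Sequencing depth ran from 25817975 to 37894237 estimated reads per library. Tsc1 itself, at 10.1 ± 1.33 CPM in the knockouts (SD, n = 6) and 10.7 ± 1.11 in the wild types (SD, n = 5), had a log2 fold change of -0.09 ± 0.11 (SE) with an edgeR adjusted p of 0.772, so the deletion in adipocytes was not detectable in whole-gland RNA. Markers of secretory and luminal epithelium summed to 176280 to 260160 CPM in the knockouts and 218470 to 323620 in the wild types. Adipocyte markers summed to 1944 to 2529 CPM and 1764 to 2398 CPM in turn, and 7 of the 10 tested were higher in the knockouts, with 0 past the adjusted threshold in edgeR and 5 at an unadjusted p under 0.05. Skeletal muscle markers reached 2130 CPM in Knockout 1 and 322 CPM in Knockout 2, against at most 39.2 CPM in the other knockouts and 206 CPM in the wild types. B-cell markers summed to 1.03 to 16.1 CPM in the knockouts and 2.21 to 87.0 CPM in the wild types, and all 5 tested were lower in the knockouts, each at an unadjusted p under 0.05. All 6 T-cell markers tested were lower and all 8 myoepithelial markers higher in the knockouts, with 2 of each at that level. Of the 7 fibroblast markers 6 were higher and 1 lower, and of the 9 secretory and luminal markers 5 were higher and 4 lower, again with 2 of each at that level. All 8 skeletal muscle markers were higher, with 0 at that level, and the endothelial, macrophage and red blood cell lists also had 0. None of these passed the adjusted threshold in edgeR, and 12.4% of all genes tested were at an unadjusted p under 0.05. No marker gene on these lists was at 0 in all libraries.

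No member passed the adjusted threshold of 0.05 in edgeR's quasi-likelihood test, where 7 of the 12716 genes tested did (0.0550%). At an unadjusted p under 0.05 there were 6 members, 13.6% of the 44, beside 12.4% of all genes tested. Of these 6, 4 were higher in the knockouts (all genes 6.31%) and 2 were lower (all genes 6.08%), so the share of members at this level was near the background. No member had genotype ranges that did not overlap, where 1.32% of all genes did. DESeq2 called 0 members, beside 1.09% of the genes it gave an adjusted p. At an unadjusted p under 0.05 it had 6 members (13.6%), beside 10.7% of the 17447 genes in that fit. Those genes include ones with too few reads for the edgeR test, which every member entered, so the shares are not like for like. The fitted log2 fold changes of the members ran from -0.73 to 0.47, with 22 above and 22 below 0. Their median was -0.01, equal at this rounding to the median of all genes tested, and the median absolute log2 fold change was 0.13 in both.

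The data bounded most of these differences. For 30 of the 44 members (68.2%) the 95% interval lay within 1.5-fold in either direction, beside 63.8% of all genes tested. The summed level of the 44 members was 1136 ± 44.1 CPM in the knockouts (SD, n = 6) and 1140 ± 48.4 CPM in the wild types (SD, n = 5). The within-genotype coefficient of variation had a median of 11.9% over the members and 16.4% over all genes tested, and it was over 30% in 6 members. Those were Gsta3, Srxn1, Hmox1, Mgst2, Gsta2 and Gstp2. The widest intervals were those of Gstp2, Gsta2 and Mgst2, where an absence of a call says least. Gstm6 and Nqo1 had larger SEs of the log2 fold change (0.28 and 0.26) than Gsta3 (0.22). The scaling matters to these statements: TPM values, which are scaled per transcript length and take no account of the secretory transcripts that fill much of each library, were higher in the knockouts for 39 of 44 members, with a median log2 ratio of 0.23. The same median over all genes tested was 0.23, and 0.18 for CPM without TMM factors, which are edgeR's correction for library composition, so all comparisons of genotypes here use CPM with TMM factors and TPM serves only to rank genes.

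**Figure D1:**
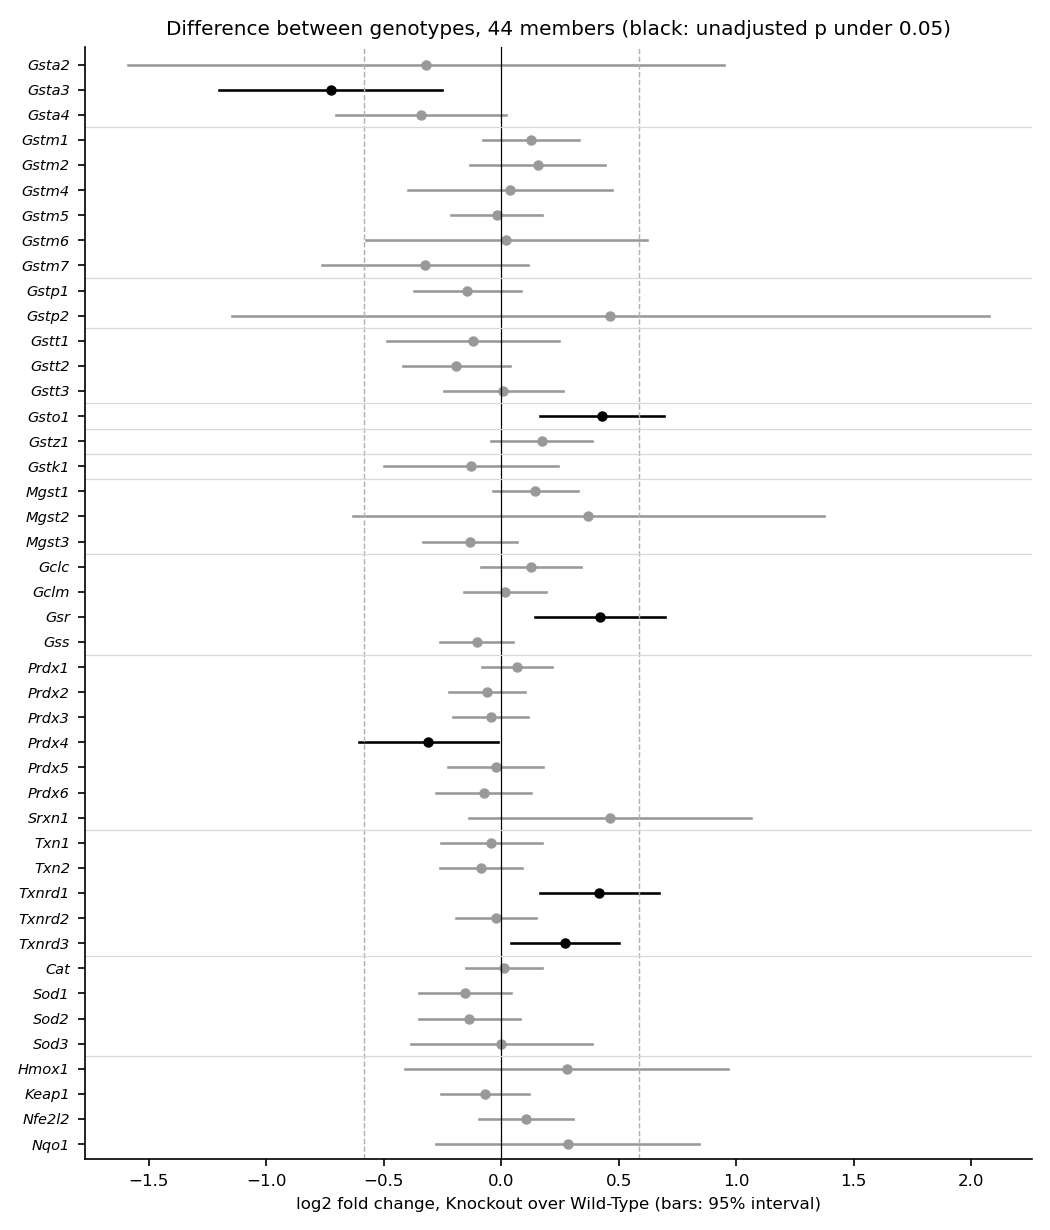
Log2 fold change (Knockout over Wild-Type, x axis) of each of the 44 members, ordered by role and divided by grey lines, with 95% intervals from edgeR. Dashed lines mark 1.5-fold, and the 6 members in black had an unadjusted p under 0.05, none of which passed after adjustment.

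Several members share coding sequence, which limits what their separate values mean. The longest identical run between the 630-base coding sequences of Gstp1 and Gstp2 was 300 bases, and the pair differed at 12 bases (98.1% identity). Of the 31-base words in the listed Gstp1 sequence, 77.5% also occurred in another gene, and of Gstp2 67.4%. The stretch from base 6 to base 35 of the coding sequence is printed because it holds the densest cluster of differences by which reads could be told apart, and capitals mark the 5 differing bases.
Gstp1: AccAtacaccattgtctacttcccaGTtcG
Gstp2: GccGtacaccattgtctacttcccaAGtcC
Words were also shared by Gsta2 (85.4%, with Gsta1 and Gm10639), Gstt3 (44.8%, mostly with Gm20441), Gstm1 (25%), Gstm6 (15.1%) and Gstm2 (10.7%). The other 37 members shared at most 10% of their words, and 32 of the 44 shared none.

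NRF2 with its small MAF partners binds antioxidant response elements, whose core was searched here as TGACNNNGC on both strands of promoter windows running from 250 bases before to 50 bases after an annotated gene start (RefSeq, GRCm38.p6). Of 32851 windows, 4071 (12.4%) held the core. Windows were at hand for 37 members, and 10 of these 37 held it: Gclm, Gsta3, Gstm5, Gstm7, Mgst1, Nfe2l2, Prdx1, Sod1, Srxn1 and Txnrd1. Counted by window, 10 of the members' 47 (21.3%) did. The matches in Txnrd1, Srxn1 and Gsta3 are printed because these genes had the largest differences between genotypes among the 10, and those of Gclm and Prdx1 because they are textbook NRF2 targets that differed little. Capitals mark the matched core, and each is read 5′ to 3′ on the strand that carries it.
Txnrd1: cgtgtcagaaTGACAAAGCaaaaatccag
Srxn1: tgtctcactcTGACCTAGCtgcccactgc
Gsta3: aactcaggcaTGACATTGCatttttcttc
Gclm: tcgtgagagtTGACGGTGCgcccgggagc
Prdx1: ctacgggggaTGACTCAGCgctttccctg
They lie at chr10:82859104-82859132, chr2:152105542-152105570, chr1:21240454-21240482, chr3:122245413-122245441 and chr4:116685456-116685484, all on the minus strand except that of Gsta3, which is on the plus strand. The Txnrd1 match is upstream of an alternative start inside the annotated gene, and the Srxn1 match lies 29 bases past the start. Of the 10 members with a match, 6 were higher and 4 lower in the knockouts (median log2 0.04), and of the 27 members with a window and no match, 12 were higher and 15 lower (median -0.02). A match describes letters in a window and shows no binding.

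Levels per transcript length differed far more between members than between genotypes. Mgst1, a microsomal transferase and peroxidase of the endoplasmic reticulum and outer mitochondrial membrane, had the highest level at 705 TPM. A listed transcript of 156 bases supplied 464 TPM of this from 3.14% of its reads, and without that transcript Mgst1 stood at 241 TPM, still above the other members. Sod1, the cytosolic copper and zinc superoxide dismutase, followed at 147 TPM and Prdx1, a cytosolic peroxiredoxin, at 144 TPM. Txn1 (cytosolic thioredoxin) was at 74.9 TPM, Prdx4 at 69.5 TPM, Prdx2 at 56.0 TPM and Sod2 (the mitochondrial manganese enzyme) at 45.9 TPM. Prdx5, Prdx3, Mgst3, Txn2, Gstp1, Gsto1, Gsta3, Gclm and Prdx6 lay between 21.2 and 41.3 TPM. Cat, Gstt2, Gstz1, Gstm1, Txnrd1 and Nfe2l2 lay between 10.03 and 18.2 TPM. Between 1.20 and 9.90 TPM were Gstt3, Gstm2, Keap1, Gss, Srxn1, Gstk1, Gstm5, Gsta4, Gsr, Hmox1, Gstt1, Gclc, Gstp2, Txnrd2, Gstm4, Gstm7, Sod3, Txnrd3 and Mgst2. Gstm6, Gsta2 and Nqo1 were the lowest, from 0.526 to 0.563 TPM, and the lowest of all was Nqo1, the quinone reductase often used as a readout of NRF2.

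**Figure D2:**
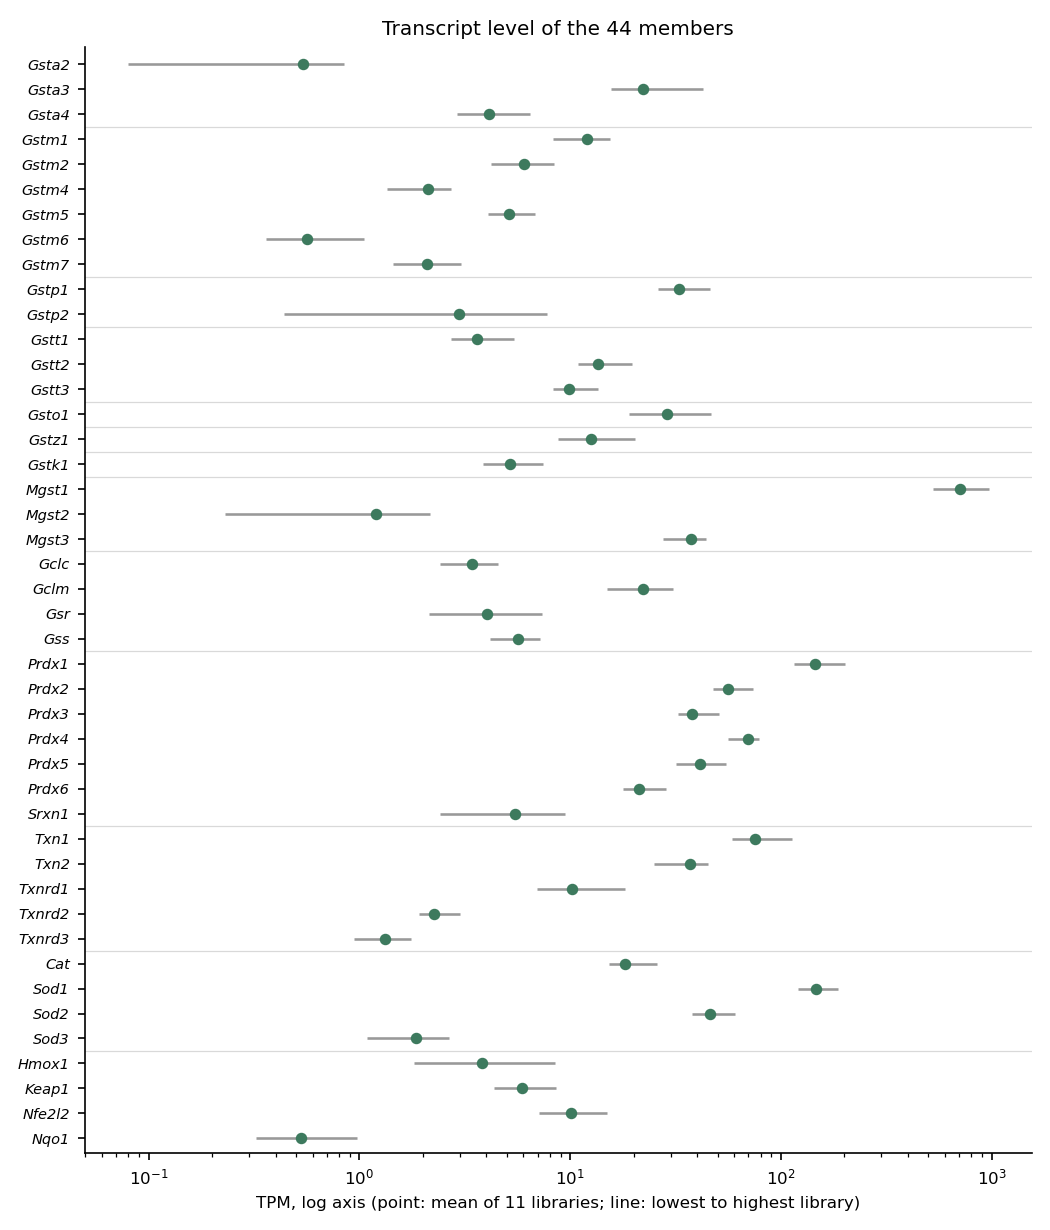
Mean TPM (log x axis) of the 44 members over all 11 libraries as points, with lines from the lowest to the highest library, ordered by role. Mgst1 stands highest at 705 TPM and Nqo1 lowest at 0.526 TPM.

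Among the alpha class transferases, which act on lipid hydroperoxides and the aldehydes they give, all 3 measured members were lower in the knockouts, with 0 past the adjusted threshold in edgeR and 1 (33.3%), Gsta3, at an unadjusted p under 0.05, beside 12.4% of all genes tested. Gsta3 (ENSMUSG00000025934, chr1:21240589-21265661 in GRCm38.p6), which also isomerises steroid intermediates, ran from 13.9 CPM through a median of 17.7 to 23.9 in the knockouts, and stood at 25.1, 51.1, 22.2, 29.6 and 23.3 CPM in Wild-Type 1 to 5. Only the highest knockout, Knockout 6, reached into the wild-type range, and Wild-Type 2 stood far above all other libraries. The log2 fold change of -0.73 ± 0.22 (SE) was the lowest of all members and had an edgeR adjusted p of 0.274. Without Wild-Type 2 it was -0.46, with an adjusted p of 0.471, still with the direction of the full comparison. Wild-Type 2 also held 65.1 CPM of B-cell markers, where Wild-Type 5 held 87.0 and the remaining libraries at most 19.3. The part of these cells in the Gsta3 difference was not tested.

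Gsta4, the alpha class enzyme most active on 4-hydroxynonenal, had 3.78 ± 0.814 CPM in the knockouts and 4.81 ± 0.825 in the wild types, with a log2 fold change of -0.34 ± 0.17 and an edgeR adjusted p of 0.431. Gsta2 was near the read limit, at 0.489 ± 0.300 and 0.615 ± 0.396 CPM, with an interval from -1.59 to 0.95 on the log2 scale. Added over the class, the knockouts held 18.4 to 28.6 CPM and the wild types 28.9 to 57.2 CPM. Knockout 6 (28.6) and Wild-Type 5 (28.9) were nearly level, and no test was made. The genotype ranges of each alpha class member alone overlapped. The sums of every other role group overlapped too, such as the mu class at 26.1 to 31.7 CPM in the knockouts and 24.9 to 30.7 CPM in the wild types. Gsta3 supplied most of the alpha class sum, with 18.3 of 22.6 CPM in the mean knockout and 30.3 of 35.7 CPM in the mean wild type.

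Of the 6 mu class members, 4 were higher and 2 lower in the knockouts, with 0 at an unadjusted p under 0.05. The lowest p-value belonged to Gstm7, at 1.79 ± 0.566 CPM in the knockouts and 2.24 ± 0.275 in the wild types, with a log2 fold change of -0.32 ± 0.20 and an edgeR adjusted p of 0.531. Gstm1, the most abundant mu class enzyme here, was at 12.0 ± 0.674 and 11 ± 1.52 CPM, an interval of -0.08 to 0.33 on the log2 scale. Gstm5, whose sequence shared no words with other genes, was among the most even members at 5.00 ± 0.375 and 5.07 ± 0.294 CPM, and its interval ran from -0.21 to 0.17. Gstm2, Gstm4 and Gstm6 had log2 fold changes of 0.16, 0.04 and 0.02.

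The pi class enzyme Gstp1, which conjugates electrophiles and binds stress kinases, was at 28.2 ± 2.28 CPM in the knockouts and 31.2 ± 5.20 in the wild types, with a log2 fold change of -0.14 ± 0.10 and an edgeR adjusted p of 0.597. Gstp2, its near-identical neighbour on chromosome 19, took 8.87 ± 5.93% of the pair's reads in the knockouts and 6.30 ± 6.57% in the wild types. That share ran from 1.35% in Wild-Type 5 to 17.9% in Wild-Type 1 and 17.8% in Knockout 2, so libraries of both genotypes lay at either end. With the pair summed, chosen after the data were seen, the log2 fold change was -0.10 ± 0.12 and the edgeR adjusted p 0.769.

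**Figure D3:**
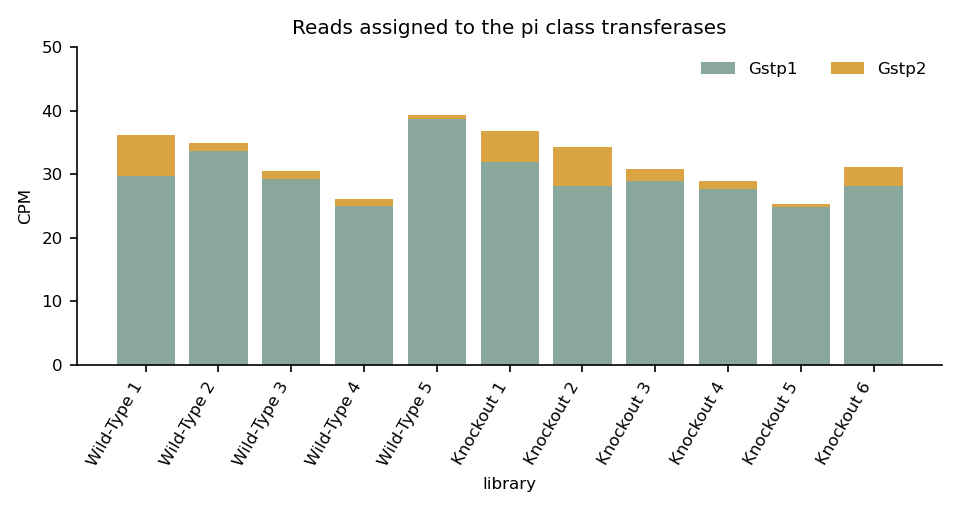
CPM assigned to Gstp1 (green) and Gstp2 (yellow) in each library, stacked so that the bar height is the pair's sum. The sum runs from 25.2 to 39.3 CPM, and the Gstp2 part is largest in Wild-Type 1 and Knockout 2.

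For the omega class, Gsto1 (ENSMUSG00000025068, chr19:47854970-47864790), a thioltransferase and dehydroascorbate reductase, was higher in most knockouts. It ran from 29.9 CPM through a median of 39.0 to 47.2 in the knockouts, and stood at 28.2, 25.9, 29.6, 26.4 and 34.0 CPM in the wild types. Knockout 2 and Knockout 5 lay within the wild-type range and the other 4 knockouts above it. The log2 fold change of 0.43 ± 0.12 had an edgeR adjusted p of 0.269. Gsto1 lies wholly within Cfap43 on the opposite strand, and whether the counting used strand is not given in the sources used here. Its paralog Gsto2 was below the read limit.

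In the theta class, which handles small halogenated compounds, Gstt2 was at 14.6 ± 2.06 CPM in the knockouts and 16.7 ± 1.60 in the wild types, with a log2 fold change of -0.19 ± 0.11 and an edgeR adjusted p of 0.486. Gstt1 and Gstt3 had log2 fold changes of -0.12 and 0.01. Summed with Gm20441, with which it shares sequence and locus, Gstt3 was at 0.01 ± 0.12. Gstz1, the zeta class maleylacetoacetate isomerase of tyrosine breakdown, was at 12.0 ± 1.61 and 10.6 ± 0.841 CPM (log2 0.17 ± 0.10, edgeR adjusted p 0.50). Gstk1, the mitochondrial and peroxisomal kappa class enzyme, was at 5.44 ± 0.940 and 5.96 ± 1.48 CPM (log2 -0.13 ± 0.17, edgeR adjusted p 0.796).

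Mgst1, the most abundant member, ran from 147 CPM through a median of 178 to 196 in the knockouts and stood at 175, 163, 150, 161 and 146 CPM in the wild types. The ranges overlapped over most of their length, and the log2 fold change was 0.15 ± 0.08 with an edgeR adjusted p of 0.501. Its interval of -0.04 to 0.33 lies within 1.5-fold. Mgst3, a microsomal peroxidase, was at 17.1 ± 1.60 and 18.7 ± 2.13 CPM (log2 -0.13), and Mgst2 was near the read limit at 0.513 ± 0.0957 and 0.406 ± 0.335 CPM.

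Glutathione synthesis and reduction comprised 4 members, with 1 (25%) at an unadjusted p under 0.05, beside 12.4% of all genes tested. Gsr (ENSMUSG00000031584, chr8:33652523-33698163), the reductase that restores glutathione from its disulfide with NADPH, ran from 13.3 CPM through a median of 14.4 to 19.0 in the knockouts. In Wild-Type 1 to 5 it stood at 10.1, 12.0, 9.14, 13.7 and 12.5 CPM. Knockout 1 and Knockout 2 were highest, and only Knockout 4 and Knockout 5 overlapped Wild-Type 4, the highest wild type. The log2 fold change was 0.42 ± 0.13 with an edgeR adjusted p of 0.274, and 0.28 without Knockout 1 and Knockout 2. These 2 libraries had the highest sums of muscle and of fibroblast markers (469 and 660 CPM for the latter) and the largest TMM factors (1.22 and 1.14). The part of these in the Gsr value, and in that of Txnrd1 below, was not tested.

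The enzymes that make glutathione differed less. Gclc, the catalytic subunit of the rate-limiting glutamate-cysteine ligase, was at 16.0 ± 1.89 CPM in the knockouts and 14.6 ± 1.54 in the wild types, with a log2 interval of -0.09 to 0.34. Gclm, the modifier subunit, was at 27.8 ± 2.32 and 27.5 ± 2.47 CPM, with an interval of -0.16 to 0.19. Gss, which adds glycine in the last step, was at 16.4 ± 1.09 and 17.6 ± 1.21 CPM, with an interval of -0.26 to 0.05. Each of these intervals lies within 1.5-fold. Gss overlaps Acss2 on the opposite strand over 22544 bases, so its value carries the same doubt about strand as that of Gsto1. Shorter overlaps with opposite-strand genes in the tables, of 181 to 804 bases each, touch Gstz1, Prdx2, Prdx5, Sod1 and Txnrd2.

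Of the 6 peroxiredoxins, 5 were lower and 1 higher in the knockouts. With Srxn1 they form a group of 7 members, of which 1 (14.3%) was at an unadjusted p under 0.05, near the 12.4% of all genes tested. Prdx4 (ENSMUSG00000025289, chrX:155323918-155340754), the peroxiredoxin of the endoplasmic reticulum that couples peroxide reduction to disulfide formation in secreted proteins, ran from 73.2 CPM through a median of 81.7 to 108 in the knockouts. In the wild types it stood at 121, 86.1, 131, 84.2 and 112 CPM. Of the wild types, 3 lay above every knockout, while Wild-Type 2 and Wild-Type 4 lay among the knockouts. This gave a log2 fold change of -0.31 ± 0.14 and an edgeR adjusted p of 0.386. Secretory markers summed to 218470 CPM in Wild-Type 4, the lowest wild type, to 287100 CPM in Wild-Type 2, above every knockout, and to 176280 CPM in Knockout 1, which had the lowest Prdx4. Their part in the Prdx4 difference was not tested.

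The other peroxiredoxins were close between genotypes. Prdx1 was at 119 ± 9.53 and 114 ± 3.48 CPM (log2 0.07 ± 0.07, edgeR adjusted p 0.721). Prdx2 (cytosolic), Prdx3 (mitochondrial), Prdx5 (mitochondrial and peroxisomal) and Prdx6 (a bifunctional phospholipase) had log2 fold changes from -0.07 to -0.02, and all 4 intervals lay within 1.5-fold. Srxn1, the sulfiredoxin that revives overoxidised peroxiredoxins, ran from 2.28 CPM through a median of 2.72 to 3.85 in the knockouts and stood at 1.47, 1.29, 1.66, 4.01 and 1.96 CPM in the wild types. Every knockout exceeded 4 of the 5 wild types, and Wild-Type 4 exceeded every knockout. Its log2 fold change was 0.46 ± 0.28 with an edgeR adjusted p of 0.518, and without Wild-Type 4 it was 0.85 with an adjusted p of 0.153.

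**Figure D4:**
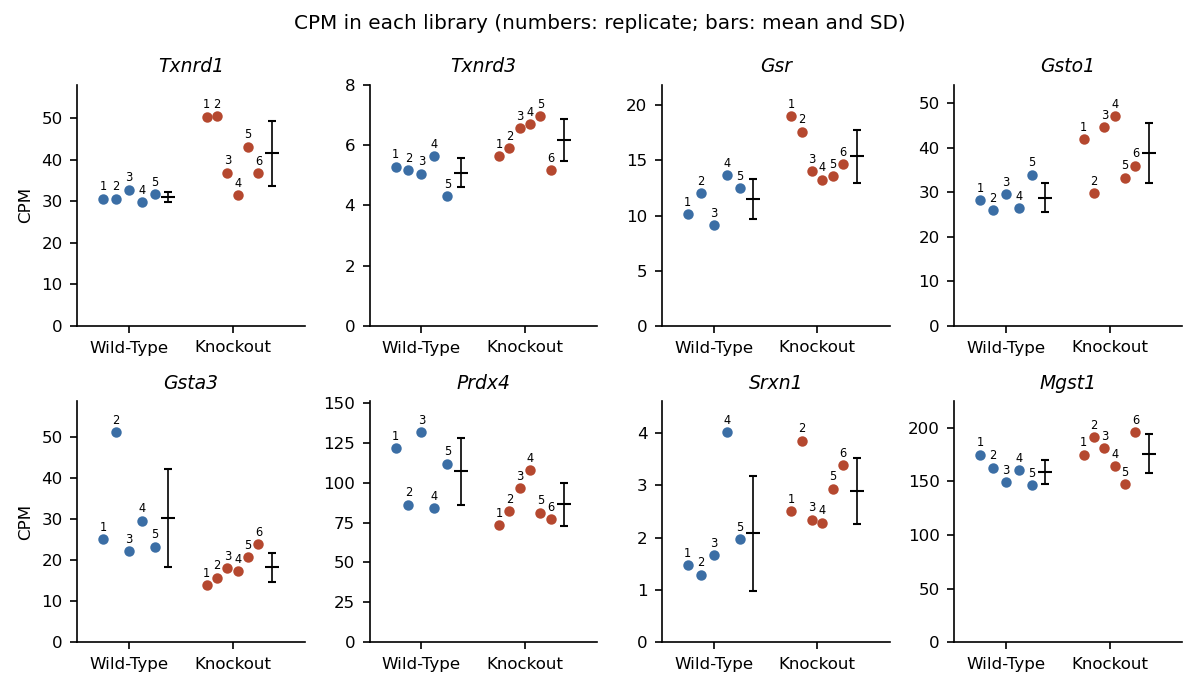
CPM (y axis, from 0) of 8 members in each library, numbered by replicate, with the mean and SD of each genotype in black. Txnrd1 and Gsr are highest in Knockout 1 and Knockout 2, Gsta3 is highest in Wild-Type 2, and Srxn1 is highest in Wild-Type 4.

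In the thioredoxin system 2 of 5 members (40%) were at an unadjusted p under 0.05, Txnrd1 and Txnrd3, beside 12.4% of all genes tested. Txnrd1 (ENSMUSG00000020250, chr10:82833951-82897712), the cytosolic selenoenzyme that passes electrons from NADPH to thioredoxin, ran from 31.6 CPM through a median of 40.1 to 50.6 in the knockouts. The wild types stood close together at 30.6, 30.6, 32.8, 29.8 and 31.8 CPM, and only Knockout 4 fell within their range. The log2 fold change was 0.42 ± 0.12 with an edgeR adjusted p of 0.263, the smallest of any member. Knockout 1 and Knockout 2 were again the highest, and without both the log2 fold change was 0.26.

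Txnrd1 reads were split between 2 main listed transcripts, Txnrd1-201 and Txnrd1-205. Txnrd1-205 took 32.8 ± 1.89% of their reads in the knockouts and 29.3 ± 1.35% in the wild types, with ranges of 29.7 to 34.5% and 27.4 to 31% that overlapped. This pair was chosen after its values were seen, and the difference was not tested. Part of Txnrd1 also overlaps Eid3 on the same strand.

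Txnrd3 (ENSMUSG00000000811, chr6:89643988-89675529), a thioredoxin and glutathione reductase best known from testis, ran from 5.18 CPM through a median of 6.23 to 6.97 in the knockouts and stood at 5.29, 5.18, 5.06, 5.65 and 4.32 CPM in the wild types. Knockout 1 and Knockout 6 lay within the wild-type range and 4 knockouts above it, for a log2 fold change of 0.27 ± 0.11 and an edgeR adjusted p of 0.350. The mitochondrial reductase Txnrd2 was at 7.53 ± 0.539 and 7.64 ± 0.419 CPM, with a log2 interval of -0.19 to 0.15. The thioredoxins that these reductases serve had log2 fold changes of -0.04 (Txn1) and -0.09 (Txn2), with intervals of -0.26 to 0.17 and -0.26 to 0.09.

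Among superoxide dismutases and catalase, 0 of 4 members were at an unadjusted p under 0.05. Sod1 ran from 57.0 CPM through a median of 70.4 to 75.3 in the knockouts and stood at 81.1, 78.8, 82.5, 62.4 and 77.6 CPM in the wild types. In all, 4 of the 5 wild types lay above every knockout, and Wild-Type 4 lay below all knockouts but Knockout 5. Together these gave a log2 fold change of -0.16 ± 0.09 with an edgeR adjusted p of 0.504. Sod2 was at 40.3 ± 3.83 and 44.3 ± 5.99 CPM (log2 -0.14), the extracellular Sod3 at 2.36 ± 0.486 and 2.37 ± 0.433 CPM, and Cat, the peroxisomal catalase, at 67.5 ± 5.56 and 66.9 ± 4.64 CPM with an interval of -0.15 to 0.18.

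The NRF2 axis itself had 3 members higher, 1 lower and 0 at an unadjusted p under 0.05. Nfe2l2 was at 43.0 ± 4.84 CPM in the knockouts and 39.9 ± 3.92 in the wild types, with a log2 fold change of 0.11 ± 0.09 and an edgeR adjusted p of 0.663. Keap1, its inhibitor, was at 27.2 ± 3.09 and 28.6 ± 1.92 CPM (log2 -0.07). Hmox1, the haem oxygenase that NRF2 induces and BACH1 represses, was at 6.71 ± 2.92 and 5.51 ± 2.22 CPM (log2 0.28), with Knockout 2 at 12.2 CPM above all other libraries. Nqo1 was at 0.844 ± 0.282 and 0.696 ± 0.101 CPM (log2 0.28), an interval of -0.28 to 0.84, which reaches past 1.5-fold.

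**Figure D5:**
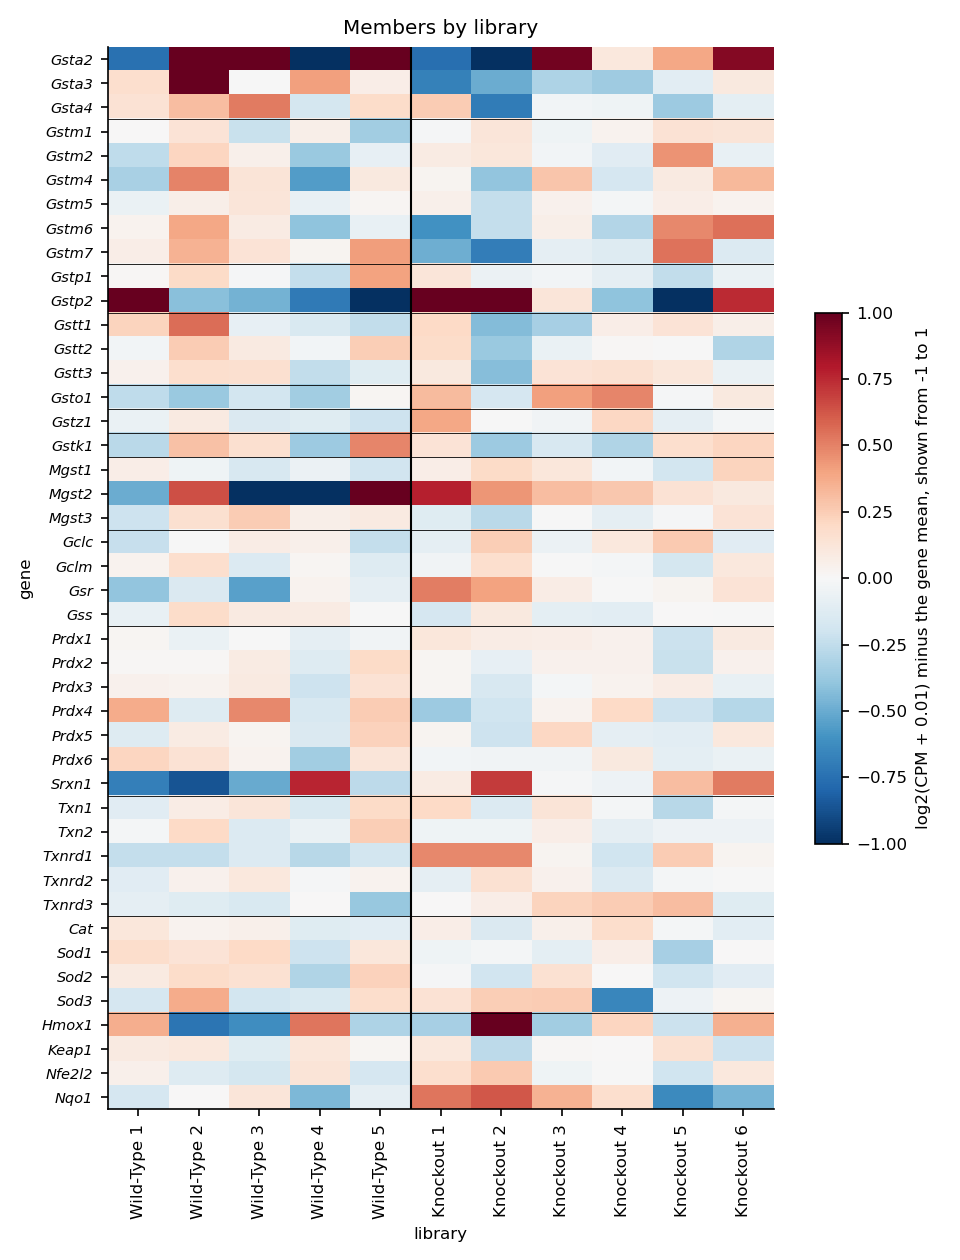
Log2(CPM + 0.01) minus the gene's mean over the 11 libraries (colour, shown from -1 to 1) for the 44 members (rows of the plot, by role) in each library (x axis). Gsta3 is mostly below its mean in the knockouts, Txnrd1 and Gsr are highest in Knockout 1 and Knockout 2, and the genotypes overlap in every member.

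Some libraries held the highest or the lowest value for several members at once. Wild-Type 4 had the lowest value of all libraries for 8 members and the highest for 1. Wild-Type 2 and Wild-Type 5 had the highest for 8 each, and the lowest for 3 and 5. Knockout 2 had the lowest for 11 and Knockout 5 for 9, and each had the highest for 6. The same counts were not made over all genes tested, so they are not shown to be particular to the members. Without Wild-Type 4, 12 members (27.3%) were at an unadjusted p under 0.05, beside 15.2% of all genes tested, and 0 passed after adjustment. These comprised the 6 members above and 6 others: Sod1, Sod2, Gstp1, Prdx6, Gsta4 and Srxn1. Their log2 fold changes without that library were -0.22, -0.21, -0.21, -0.15, -0.42 and 0.85. Wild-Type 4 had the largest TMM factor of the wild types, 1.09, and the lowest secretory marker sum among them. The part of either in these values was not tested.

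Around the module, 77 further symbols of glutathione and NRF2 biology gave 70 tested genes. Of these, 8 (11.4%) were at an unadjusted p under 0.05, with 5 higher and 3 lower in the knockouts, beside the 12.4% of all genes, and 1 passed the adjusted threshold. The exception was Gpx3, the secreted plasma glutathione peroxidase, at 207 ± 39.7 CPM in the knockouts and 66.7 ± 23.4 in the wild types, which rose by a log2 of 1.63 ± 0.22 with an edgeR adjusted p of 0.0150. That call was lost with replicate number as a block, where the adjusted p was 0.256 and the log2 difference 1.61. It was also lost without Knockout 1, 3 or 6 or Wild-Type 2 or 3. There the adjusted p lay between 0.0502 and 0.0779 and the log2 difference between 1.51 and 1.64. In the other 13 alternatives the call held, with an adjusted p of 4.7e-11 in DESeq2, and the genotype ranges did not overlap. Of the other 4 glutathione peroxidases tested, Gpx1, the cytosolic enzyme, was at 172 and 196 CPM in turn (log2 -0.19, edgeR adjusted p 0.447).

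In cystine supply and glutathione turnover, 3 of 14 genes (21.4%) were at an unadjusted p under 0.05, beside 12.4% of all genes tested. Oplah, the 5-oxoprolinase that returns glutamate from broken-down glutathione, was at 47.5 ± 1.3 CPM in the knockouts and 57.5 ± 4.92 in the wild types, with no overlap between them. Its log2 fold change was -0.27 ± 0.07 with an edgeR adjusted p of 0.218, while DESeq2 gave an adjusted p of 0.00795. Ggct, which supplies Oplah with its substrate, was also without overlap, at 3.96 ± 0.604 and 5.24 ± 0.297 CPM, with a log2 fold change of -0.40 ± 0.12 and an edgeR adjusted p of 0.270. Anpep, which cleaves cysteinylglycine, was higher, with a log2 fold change of 0.85 ± 0.37 and an edgeR adjusted p of 0.389. Slc7a11, the cystine transporter and an NRF2 target, had at most 9 reads in a library and was not tested.

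For NADPH, which both reductases spend, 2 of 9 gene IDs (22.2%) were at an unadjusted p under 0.05, beside the same 12.4%. Idh1, the cytosolic isocitrate dehydrogenase, was at 20.8 ± 3.55 and 15.1 ± 1.85 CPM without overlap (log2 0.46 ± 0.13, edgeR adjusted p 0.263). Nnt, the mitochondrial transhydrogenase, is listed under 2 gene IDs at 1 locus and is therefore uncertain. The first was at 14.4 ± 3.33 and 9.89 ± 3.56 CPM (log2 0.54 ± 0.23, edgeR adjusted p 0.381), and the second at 1.40 ± 0.652 and 2.00 ± 1.04 CPM (log2 -0.52 ± 0.38, edgeR adjusted p 0.593). Of 9 genes listed as NRF2 regulators, which include the haem oxygenase Hmox2, 1 was at that level. It was Maff, a small MAF partner (log2 -0.76 ± 0.31, edgeR adjusted p 0.363). Nfe2l3, a relative of Nfe2l2, had the next lowest p, with a log2 fold change of 0.63 ± 0.35 and an edgeR adjusted p of 0.491. Of 17 other NRF2 targets 1 was, Ptgr1, a reductase of lipid-derived alkenals (log2 0.31 ± 0.13, edgeR adjusted p 0.371), followed by the carbonyl reductase Cbr1 (log2 -0.17 ± 0.09, edgeR adjusted p 0.479). Of 16 thiol and disulfide partners 0 were at that level. The lowest p-values there belonged to Sesn1, a sestrin (log2 -0.20 ± 0.15, edgeR adjusted p 0.597), and Msra, a methionine sulfoxide reductase (log2 -0.10 ± 0.08, edgeR adjusted p 0.651).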

How the data were processed

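RNA from 11 mammary gland libraries had been quantified per transcript. Per the submitters' processing notes the tools were Salmon 1.3.0 and DESeq2 1.28.1 with GRCm38.p6; index and options are not given in the sources used here. Per the file headers, each deposited table gives estimated counts (NumReads), TPM and effective length; the authors' deposited normalized values (signal) per gene were used in an alternative only. Of the listed transcripts, 87.2% have a length divisible by 3, so lengths are mostly coding lengths.

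Estimated counts were summed per gene (GENCODE M21; 57452 of 58204 transcripts matched, and the 752 unmatched held 0.195 to 0.265% of reads), rounded, and tested over 12716 genes passing filterByExpr. The test was edgeR 4.0.16's quasi-likelihood test with TMM factors and Benjamini-Hochberg adjustment (R 4.3.3), tested first on simulated data. CPM uses TMM-scaled library sizes. Alternatives used DESeq2 1.42.0, limma 3.58.1 (on log2(value + 1)), other scaling, filters, a transcript length offset, a replicate block, and left-out libraries. Depth was 25817975 to 37894237 reads.

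Fold changes with errors and adjusted p are given for members at an unadjusted p under 0.05, the lowest p in each role group, the 3 highest TPM, and the 2 lowest p in each pathway list; other members and genes are named for their role or were chosen after their values were seen. Members and lists were chosen with earlier results of these data known.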

Additional observations from a re-analysis of the deposited data

Results flagged for a closer look

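In 10 of the 88 sets of values (44 members in 2 genotypes) 1 library stood apart from the rest of its genotype by Dixon's criterion, where chance gives about 1 in 20, or 4.4. High values were Gsta3 in Wild-Type 2 at 51.1 CPM, Gstp2 in Wild-Type 1 at 6.44 CPM, Srxn1 in Wild-Type 4 at 4.01 CPM, Hmox1 in Knockout 2 at 12.2 CPM, Gstm2 in Knockout 5 at 8.11 CPM, Prdx6 in Knockout 4 at 23.1 CPM and Txn2 in Knockout 3 at 16.2 CPM. Low values were Sod1 in Wild-Type 4 at 62.4 CPM, Prdx1 in Knockout 5 at 100.34 CPM and Gstm5 in Knockout 2 at 4.26 CPM.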

How the results depend on the processing

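The count of 0 members past the adjusted threshold held in all 19 alternatives. For the 15 members that the naming rule selects, which leaves out Gsta4 and Srxn1, all 286 values kept their direction and stayed short of the threshold; their lowest adjusted p was 0.0681 (Txnrd1, DESeq2). Members at an unadjusted p under 0.05 numbered 6 (13.6%, beside 12.4% of all genes tested). With 1 library left out they numbered 4 to 12 (9.09 to 27.3%), beside 8.19 to 15.2% of all genes in those fits. The 12 came without Wild-Type 4, where the share of all genes was also highest. Without Knockout 1 and Knockout 2, an alternative chosen after the data were seen, they numbered 5 (11.4%, beside 9.79% of all genes). Pathway genes at that level numbered 8 (11.4%), and 4 to 12 with 1 library left out, to be read beside the same shares of all genes. There were 4 without Knockout 1 (9.97% of all genes). There were 5 without Knockout 6, Wild-Type 1, Wild-Type 2 or Wild-Type 3 (8.19 to 13.3% of all genes). Genes past the adjusted threshold numbered 7, 146 in DESeq2, 13 without Knockout 1 and Knockout 2, and 0 to 28 with 1 library left out. The latter count was 0 without Knockout 3 or Knockout 6, 2 without Knockout 1 or Wild-Type 3, 13 without Wild-Type 1 or Wild-Type 5, 14 without Wild-Type 4 and 28 without Knockout 2. The cause was not tested. Gpx3 lost its call in 6 alternatives.

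With replicate number as a block, 0 genes passed, and 5 members (11.4%, beside 8.1% of all genes in that fit) and 6 pathway genes were at an unadjusted p under 0.05. Over 5 same-numbered pairs the correlation of deviations ran from -0.22 to 0.19, with 1 over 0.1, and 0 of the 5 wild types correlated best with their own number, so the labels' numbers are not shown to pair the libraries. Depth limits Gsta2, Mgst2, Gstm6 and Nqo1, each below 1.3 TPM.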
